A study of Mus musculus with 6 samples.

Results

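Glucose enters the heart muscle cell through the transporters Slc2a1 and Slc2a4, is broken down to pyruvate by the glycolytic enzymes, or is stored as glycogen. A list of 36 genes of these steps was followed in whole hearts of mice lacking miR-1-2 and of wild-type mice. The list was written by function, with earlier results of these data known. It covers glucose uptake, glycolysis, lactate, the glycerol phosphate shuttle, and the making and breaking of glycogen. On the arrays 32 of the 36 genes were each named by at least 1 probe set of the fit, out of 18193 genes in all. Gapdh was named alone only by 3 control probe sets and is described without a test. The expression of Gpi1, Eno1 and Pfkfb1 was not analysed here.

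Many steps of the pathway have several isoforms, each from its own gene. The fetal heart relies on glucose and lactate, and after birth heart muscle turns to fatty acids. The muscle isoforms (Slc2a4, Hk2, Pfkm, Pgam2, Eno3, Pygm) then become prominent beside ubiquitous, liver or brain forms (Slc2a1, Hk1, Pfkl, Pfkp, Pgam1, Pygb, Pygl). The phosphofructokinase step is the main control point of glycolysis, and the kinases Pfkfb2 and Pfkfb3 make the sugar phosphate that switches it on.

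Total RNA came from whole hearts at postnatal day 10, with 1 array per heart: 3 hearts were wild-type and 3 came from knockouts of miR-1-2. The microRNA miR-1 of heart and skeletal muscle is made from more than one gene, and miR-1-2 is one of them; the labels name no change in the others. The sources used here give no strain, litter or sex. The comparison asks which heart messenger RNAs were higher or lower without miR-1-2.

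Each value below is a log2 RMA value, a normalised array signal, so a difference of 1 would be a doubling. Hearts also differed in sex and in fat genes. The X-inactivation RNA Xist was between 11.91 and 12.19 in the 3 wild-type arrays and knockout replicate 2, and at 7.55 and 7.57 in knockout replicates 1 and 3, so the sexes were not balanced between the groups. The brown fat gene Ucp1 read 9.45 in wild-type replicate 1 and 10.39 in knockout replicate 1, against 5.22 to 6.68 elsewhere. Cardiomyocyte markers were present in every array, with a summed level between 17.31 and 17.40 for all 12 listed. Of 14 fast skeletal muscle markers, 7, among them Myh4, Tnnt3 and Actn3, averaged under 6, near background. Their summed level was 10.45 to 10.71 in wild type and 10.38 to 10.49 in knockout. Of the 14, 5 were higher in knockout, and the median difference was -0.010. Mybpc2 was lower in all knockout arrays (-0.38, limma adjusted p = 0.721), and the part of such fibres in the results was not tested. In whole hearts, fewer cells of a type and less RNA per cell cannot be told apart.

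With limma, 0 of the 32 genes passed an adjusted p of 0.05 between knockout and wild type, and 0% of all genes did. With the replicate numbers as pairs 0 members passed as well, beside 0.0715% of all genes. The smallest adjusted p among members was 0.721, for Pgam1, and 0.195 with the pairing. At an unadjusted p of 0.05, 6 members stood out (18.8%, beside 4.1% of all genes): Pgam1, Pfkl, Gyg, Aldoc and Gbe1 were higher in knockout and Hk2 lower. With the pairing 7 did (21.9%, beside 7.29%). Without knockout replicate 3 it was 2 members (6.25%, beside 2.18%), and without the suffixed probe sets, whose probes can match several transcripts, 2 of 24 (8.33%, beside 3.95%). With Xist as a covariate it was 4 (12.5%, beside 7.46%). All wild-type hearts had high Xist, so that fit rests largely on knockout replicate 2 and cannot fully allow for sex. Of the 32 genes 20 were higher in knockout (62.5%, beside 50.2% of all genes) and 12 lower. The median log2 difference was 0.025, beside 0.00048 over all genes. Without knockout replicate 3 the members' median was -0.012 and 14 were higher. In 20 of the 32 the direction was the same whichever 1 array was left out, a count that was not made for all genes.

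In 8 of 32 members (25%) the 2 groups of hearts did not overlap, beside 8.86% of all genes. Because the members were chosen with earlier results known, this share and those above describe the list and cannot show an excess. Pgam1, Pfkl, Gyg, Aldoc, Pfkp and Pgam2 were above wild type in all knockout arrays, beside 4.57% of all genes, and Hk2 and Ugp2 below it, beside 4.28%. Leaving out knockout replicate 1 gave 40.6% of members beside 38.7% of all genes. Without both first replicates it was 43.8% beside 46.6%. Leaving out any other single array kept a larger share among members, from 28.1% beside 14.7% (without wild-type replicate 1) to 37.5% beside 17% (without knockout replicate 2). Between hearts of the same number, 10 of 32 members ran one way in 3 of 3 pairs (31.2%), beside 28.5% of all genes. At the level of probe sets, 0 of the members' 72 passed with limma, beside 0.00666% of all, and 9 had an unadjusted p under 0.05, beside 3.94%.

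**Figure D1:**
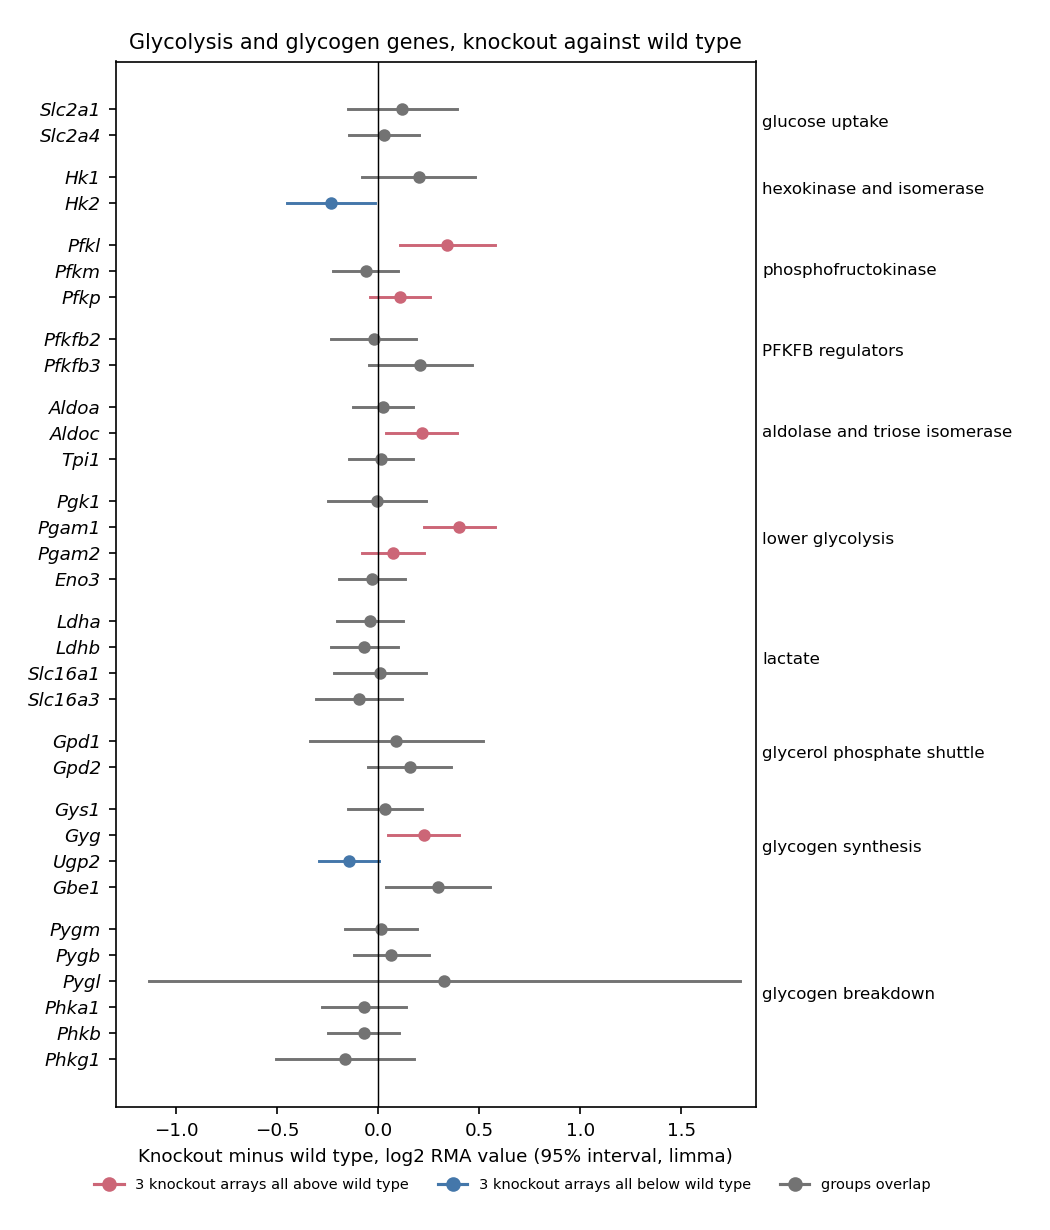
Knockout minus wild type on the log2 scale for 32 members, ordered by role, with 95% intervals from limma over 3 arrays per group. Pgam1 (0.40) and Pfkl (0.34) lie farthest to the right among genes with short intervals, Hk2 (-0.23) farthest to the left, and the Pygl interval is the widest.

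The enzyme with the largest difference relative to its error was Pgam1, the ubiquitous phosphoglycerate mutase, which moves the phosphate of phosphoglycerate in lower glycolysis. It read 8.71, 8.53 and 8.57 in wild-type replicates 1 to 3 and 8.94, 9.01 and 9.06 in the knockout. All 3 knockout hearts lay above all wild-type hearts. The means were 8.60 ± 0.10 (SD, n = 3) and 9.00 ± 0.06, a 1.32-fold difference (log2 0.40 ± 0.08, SE, limma adjusted p = 0.721). By unadjusted p it ranked 14 of 18193 genes. Leaving out any 1 array gave differences from 0.36 to 0.45. Pgam1 has a single probe set on the array.

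Pgam2, the muscle form of the same enzyme, read 12.21, 12.14 and 12.22 in wild type and 12.23, 12.26 and 12.30 in knockout. The groups did not overlap, but the gap was small against the error (0.073, 95% interval -0.080 to 0.23, adjusted p = 1.00).

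Because array signals of different probe sets cannot be set against each other, the forms were compared by how their difference within an array moved with genotype. Pgam1 minus Pgam2 was -3.50, -3.61 and -3.65 in wild type and -3.29, -3.25 and -3.24 in knockout. The balance lay 0.33 further towards Pgam1 in knockout, a 1.25-fold shift. With 3 hearts against 3, the exact two-sided permutation test cannot go below p = 0.10, and this pair reached that smallest value (adjusted p = 0.22 over 11 pairs).

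The promoters of some of the members are shown for their letters. They are the 250 bases before the start of Pgam1, Pgam2, Pfkl and Hk2 in GRCm38.p6, from RefSeq, written 5′ to 3′ on the gene's strand. Capitals mark ACGTG or its reverse complement CACGT, a form of the core of the hypoxia response element. Through that element the factor HIF1 acts on glycolytic genes. The core can also read GCGTG, which was not searched or counted, though the Pgam1 and Pfkl windows hold it.
Pgam1, chr19:41911621-41911870, plus strand: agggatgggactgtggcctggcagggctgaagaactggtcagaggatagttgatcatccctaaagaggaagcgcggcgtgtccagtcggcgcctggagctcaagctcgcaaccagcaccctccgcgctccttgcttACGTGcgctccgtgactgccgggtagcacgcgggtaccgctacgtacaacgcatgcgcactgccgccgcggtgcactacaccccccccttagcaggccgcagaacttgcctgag
Pgam2, chr11:5803797-5804046, minus strand: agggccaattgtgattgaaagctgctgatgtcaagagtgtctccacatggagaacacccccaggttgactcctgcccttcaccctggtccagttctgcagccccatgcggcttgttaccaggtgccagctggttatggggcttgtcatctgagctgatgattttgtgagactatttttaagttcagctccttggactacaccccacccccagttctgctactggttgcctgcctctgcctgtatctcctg
Pfkl, chr10:78009808-78010057, minus strand: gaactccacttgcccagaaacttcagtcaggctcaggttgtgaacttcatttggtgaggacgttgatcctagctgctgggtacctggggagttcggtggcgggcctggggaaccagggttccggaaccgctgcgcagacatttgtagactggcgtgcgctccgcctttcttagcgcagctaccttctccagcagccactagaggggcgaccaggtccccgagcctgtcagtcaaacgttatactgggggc
Hk2, chr6:82774455-82774704, minus strand: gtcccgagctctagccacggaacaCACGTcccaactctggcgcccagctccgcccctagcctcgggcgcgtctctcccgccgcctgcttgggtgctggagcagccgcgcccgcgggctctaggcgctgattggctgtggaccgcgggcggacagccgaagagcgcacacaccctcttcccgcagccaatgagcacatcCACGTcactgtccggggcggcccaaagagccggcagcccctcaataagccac

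The Pgam1 window held 1 match and 22 CG dinucleotides, and the Pgam2 window 0 matches and 1 CG. The Pfkl window held 0 matches and 13 CG, and the Hk2 window 2 matches and 25 CG. Of the members listed, 34 genes, among them Gapdh, Gpi1, Eno1 and Pfkfb1, had 52 promoter entries. These are therefore not the same genes as those of the fit. Of the entries, 20 (38.5%) held ACGTG on either strand, beside 16.6% of all 32851 entries. Member windows also had more CG dinucleotides, with a median of 13 against 6, and the motif itself contains one. The longer motif CACGTG, which contains ACGTG, was in 5 of 52 (9.62%), beside 6.02%. Such matches describe letters and are not evidence of a bound factor.

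**Figure D2:**
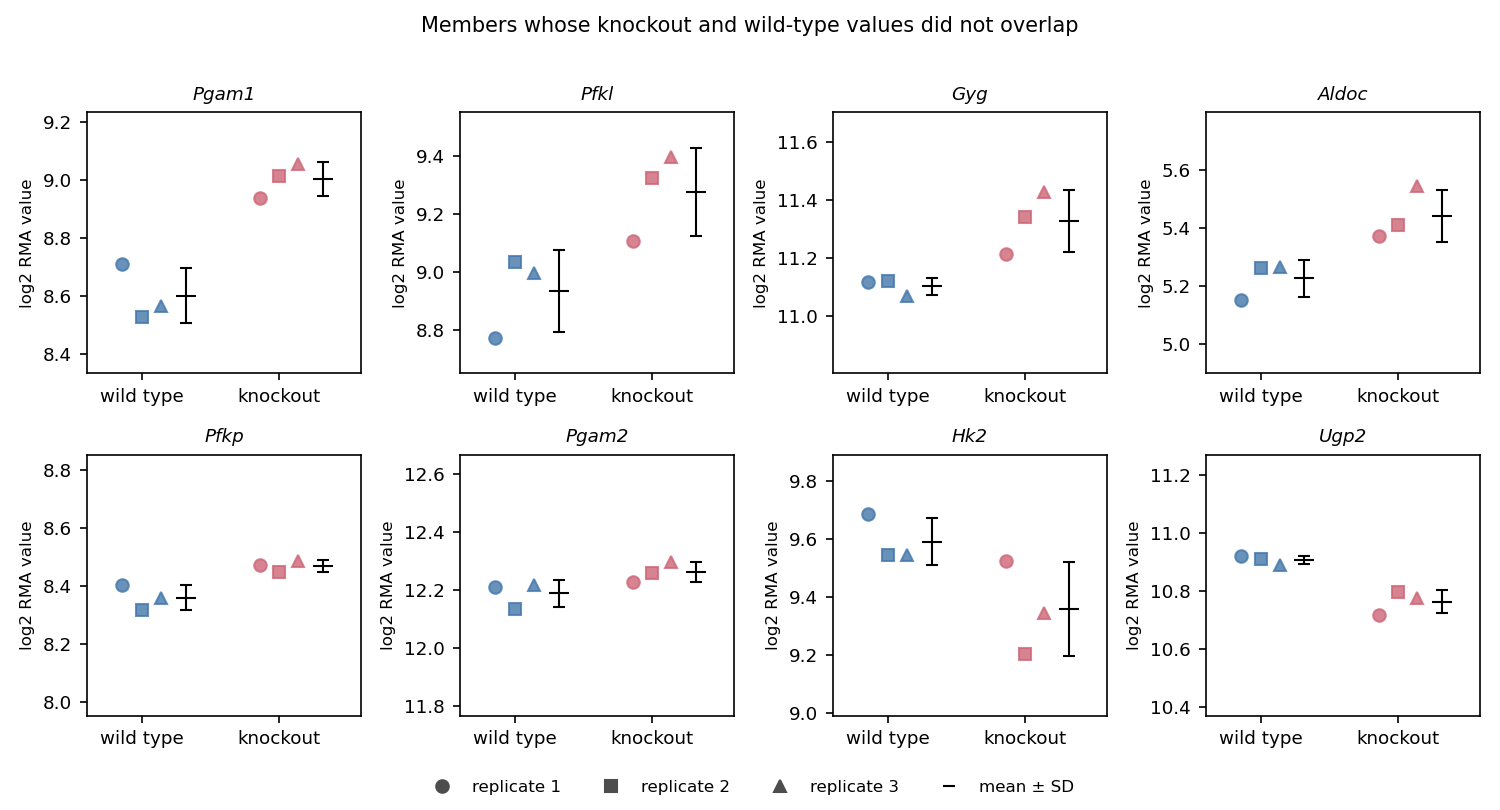
Log2 RMA values of the 8 members whose groups did not overlap, by heart, with mean ± SD (n = 3); symbols give the replicate number, and every panel spans the same height on the log2 scale. The gap between groups is widest in Pgam1 and narrowest in Pgam2.

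Neither glucose transporter passed the test. Slc2a4, the insulin-responsive transporter, read 9.74, 9.90 and 9.85 in wild type and 9.83, 9.82 and 9.94 in knockout, and the groups overlapped (0.029, 95% interval -0.14 to 0.20). Its dimmer probe set went the other way with groups apart, at 9.34, 9.44 and 9.33 in wild type and 9.26, 9.25 and 9.30 in knockout (-0.099). Slc2a1, the basal transporter of the fetal heart, read 6.73, 6.78 and 6.84 in wild type and 6.66, 6.91 and 7.15 in knockout. Knockout replicate 3 was the highest array and knockout replicate 1 the lowest, and without replicate 3 of the knockout the difference went from 0.12 to -0.0014. Without knockout replicate 1 it was 0.24. All 3 Slc2a1 probe sets were higher in knockout on average, by 0.044 to 0.12, and none passed.

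The hexokinases, which trap glucose in the cell by phosphorylation, stood in opposite directions. Hk2, the insulin-regulated form of muscle, read 9.69, 9.54 and 9.54 in wild type and 9.53, 9.20 and 9.34 in knockout. All knockout hearts were below all wild-type hearts, with knockout replicate 1 just under the lowest wild-type value. The means were 9.59 ± 0.08 (SD, n = 3) and 9.36 ± 0.16, a 1.18-fold lower level in knockout (log2 -0.23 ± 0.10, SE, adjusted p = 1.00). The difference was -0.16 without knockout replicate 2 and -0.32 without knockout replicate 1.

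Hk1, the ubiquitous form bound to mitochondria, read 9.80, 10.13 and 10.00 in wild type and 9.95, 10.23 and 10.35 in knockout. The groups overlapped, and each knockout heart was above the wild-type heart of its number (0.20 ± 0.12, SE). Leaving out 1 array gave 0.11 (without wild-type replicate 1 or knockout replicate 3) to 0.31 (without knockout replicate 1). Its dimmer probe set gave 0.20 as well. Hk1 minus Hk2 moved by 0.43 towards Hk1 in knockout, the largest shift of the 11 isoform pairs, with overlapping groups (exact permutation p = 0.30). It read 0.11, 0.59 and 0.46 in wild type and 0.43, 1.03 and 1.01 in knockout, lowest in both first replicates. Myeloid markers were lower in knockout in 8 of 8 genes, at summed levels of 10.77 to 11.12 in wild type and 10.56 to 10.78 in knockout. With limma 0 of 8 passed, and 4 had an unadjusted p under 0.05, beside 4.1% of all genes. None of these markers averaged under 6, and their part in the Hk2 difference was not tested.

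Phosphofructokinase commits glucose to glycolysis. Pfkl, the liver-type subunit, read 8.77, 9.03 and 9.00 in wild type and 9.11, 9.32 and 9.40 in knockout. All knockout hearts lay above all wild-type hearts. The means were 8.93 ± 0.14 (SD, n = 3) and 9.28 ± 0.15, a 1.27-fold difference (log2 0.34 ± 0.10, SE, adjusted p = 1.00, and 0.232 with the pairing). Its second probe set gave 0.27, again with no overlap. The dimmest Pfkl probe set went the other way (-0.097), and it is the only one without a suffix for probes shared between transcripts.

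Pfkm, the muscle subunit, read 11.47, 11.58 and 11.51 in wild type and 11.52, 11.40 and 11.46 in knockout (-0.061, 95% interval -0.22 to 0.10). Pfkp, the platelet subunit, was 0.11 higher in knockout, at 8.40, 8.32 and 8.36 against 8.47, 8.45 and 8.49. The Pfkp groups were apart by a small step, and its dimmer probe sets differed by -0.13 and -0.0053. With the mean of its probe sets Pfkp differed by -0.0093.

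Relative to Pfkm, Pfkl stood 0.40 higher in knockout (a 1.32-fold shift), from -2.70, -2.54 and -2.52 to -2.41, -2.07 and -2.07. Pfkp stood 0.17 higher relative to Pfkm. Both balances had groups apart and the smallest p the exact permutation test allows (p = 0.10, adjusted p = 0.22). Both depend on the choice of probe set. Without suffixed probe sets Pfkl against Pfkm was -0.036, and with the mean of probe sets it was 0.23 and Pfkp against Pfkm 0.052.

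The PFKFB kinases set the activity of phosphofructokinase. Pfkfb2, the heart form, read 7.66, 7.91 and 7.90 in wild type and 7.87, 7.69 and 7.85 in knockout, a difference of -0.022 with overlap. Pfkfb3, the inducible form, read 5.29, 5.56 and 5.73 in wild type and 5.80, 5.76 and 5.65 in knockout (0.21 ± 0.11, SE). Its signal averaged under 6, its groups overlapped, and without wild-type replicate 1 the value was 0.090. The other Pfkfb3 probe set gave -0.018.

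**Figure D3:**
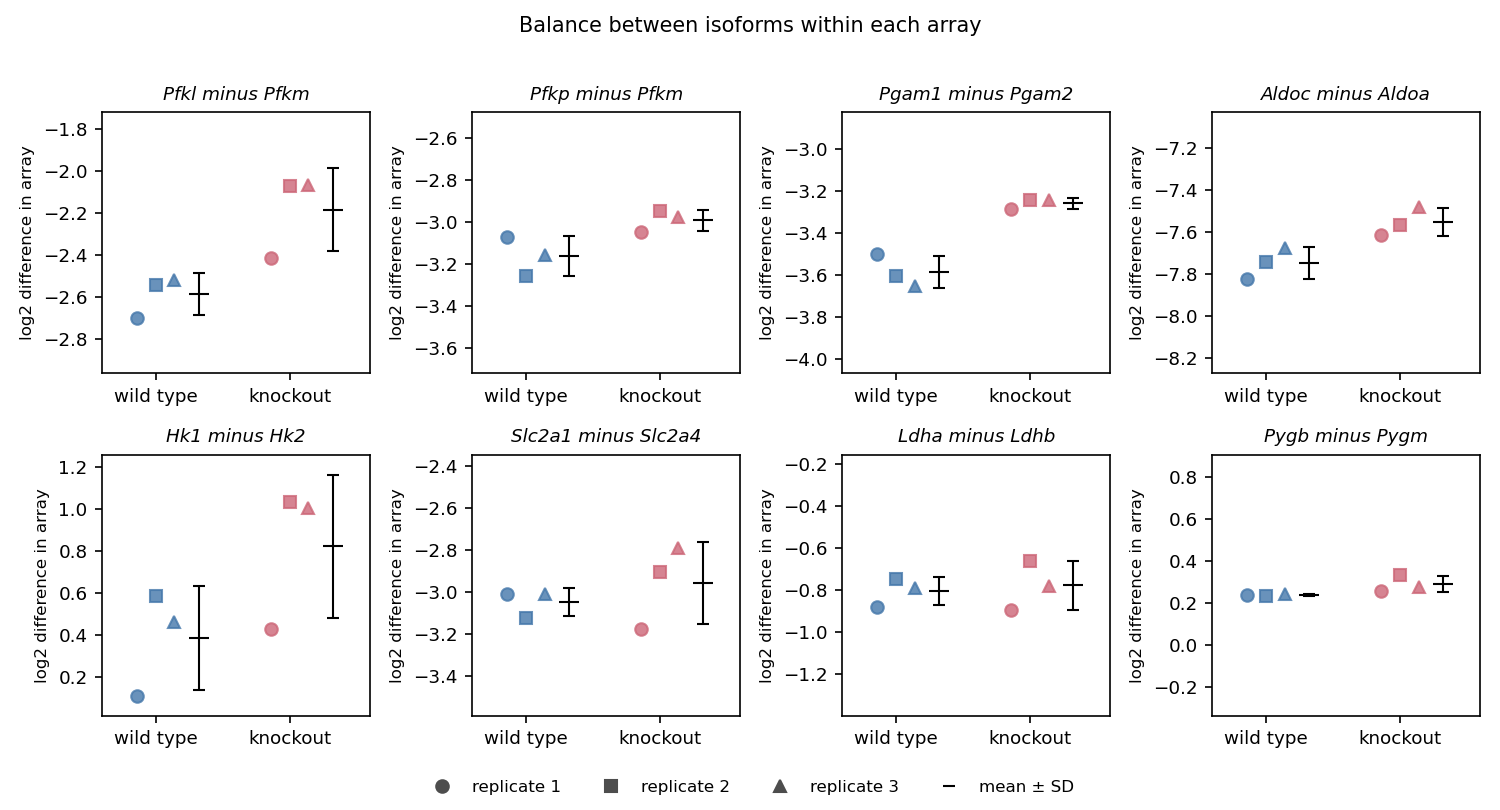
Log2 difference between the paired forms within each array for 8 of the 11 pairs, with mean ± SD (n = 3); symbols give the replicate number, and every panel spans the same height. Pfkl, Pfkp, Pgam1, Aldoc and Pygb sit higher against their partners in all knockout hearts, while Ldha minus Ldhb and Slc2a1 minus Slc2a4 overlap.

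Of the 11 isoform pairs, 5 had knockout balances all above wild type and 0 all below. These were Pfkl and Pfkp against Pfkm, Pgam1 against Pgam2, Aldoc against Aldoa, and Pygb against Pygm. Over single genes, 4.57% had all knockout arrays above wild type, and no such share was computed for pairs of genes. Pfkl, Pfkp, Pgam1 and Aldoc were among those already, so their pairs are no separate evidence, and the 2 pairs with Pfkm share that gene. The adjusted p of 0.22 is the lowest in this family, and no pair passed. The Pygb against Pygm shift was small (0.051), from 0.24, 0.23 and 0.24 in wild type to 0.26, 0.33 and 0.28 in knockout.

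Aldolase splits the 6-carbon sugar, and Tpi1 interconverts the resulting trioses. Aldoa, the muscle aldolase, read 12.98, 13.00 and 12.94 in wild type and 12.98, 12.98 and 13.02 in knockout, and its spread within groups was among the lowest 1.98% of genes. The difference was 0.022 (95% interval -0.13 to 0.17). Aldoc, the brain form, read 5.15, 5.26 and 5.26 in wild type and 5.37, 5.41 and 5.54 in knockout. All knockout hearts were above all wild-type hearts (0.22 ± 0.08, SE, adjusted p = 1.00). The Aldoc signal averaged under 6, and its other probe set, dimmer still, differed by 0.079. Tpi1 differed by 0.014 (95% interval -0.14 to 0.17).

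In lower glycolysis, Pgk1, which makes ATP from bisphosphoglycerate, read 12.01, 11.75 and 11.81 in wild type and 12.01, 11.67 and 11.87 in knockout. Its first replicates were the highest in both groups, and the group means differed by -0.0056. Eno3, the muscle enolase, read 12.60, 12.69 and 12.63 in wild type and 12.55, 12.57 and 12.70 in knockout, with overlap (-0.030, 95% interval -0.20 to 0.13). The 3 Gapdh control probe sets differed by 0.00034, -0.024 and 0.0066. Their 3′ minus 5′ signal, a measure of RNA integrity, was between 0.0026 and 0.064 over the 6 arrays, and that of beta-actin between 0.073 and 0.19.

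Across the 9 members with a mean of at least 11, 8 differed by under 0.1 in either direction: Pfkm, Aldoa, Tpi1, Pgk1, Pgam2, Eno3, Ldha and Ldhb. Their 95% intervals together ran from -0.25 to 0.24. The array signal is compressed near its top, so a change in the brightest probe sets may be understated. The exception was Gyg.

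Lactate leaves or enters the heart through Slc16a1 and Slc16a3 and is exchanged with pyruvate by lactate dehydrogenase. Ldhb, the heart subunit, read 12.23, 12.21 and 12.19 in wild type and 12.18, 12.04 and 12.21 in knockout. The groups overlapped, and all 4 Ldhb probe sets were lower in knockout on average, with differences from -0.074 to -0.065. Ldha, the muscle and hypoxia-responsive subunit, read 11.35, 11.46 and 11.40 in wild type and 11.29, 11.38 and 11.43 in knockout (-0.040, 95% interval -0.21 to 0.12). Ldha minus Ldhb moved by 0.029 (exact permutation p = 0.90).

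Slc16a1 read 10.72, 10.75 and 10.63 in wild type and 10.52, 10.71 and 10.89 in knockout, so that knockout hearts held both the lowest and the highest value. Slc16a3, the exporter of glycolytic muscle, stayed between 4.26 and 4.54, a range near background.

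The glycerol phosphate shuttle carries reducing power of glycolysis into mitochondria. Gpd1, its cytosolic enzyme, read 8.22, 7.81 and 7.91 in wild type and 8.52, 7.84 and 7.84 in knockout. Both first replicates were above the other 4 hearts, and the groups overlapped (0.090 ± 0.19, SE). Ucp1 and the fat gene Adipoq (6.85 and 7.32 in the first replicates, 3.68 to 3.86 elsewhere) were high in the same 2 arrays. Of 10 fat markers 6 did so, the summed level was 13.84 to 13.97 in wild type and 13.78 to 14.04 in knockout, and Adipoq, Lep, Elovl3 and Cidec averaged under 6. Without knockout replicate 1 Gpd1 differed by -0.14. Gpd2, the mitochondrial enzyme, read 7.31, 7.37 and 7.32 in wild type and 7.66, 7.35 and 7.46 in knockout, with overlap (0.16 ± 0.09, SE), and without knockout replicate 1 the difference was 0.069. Of its 4 probe sets, 3 were higher by 0.16 to 0.17 and the dimmest was lower (-0.093).

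**Figure D4:**
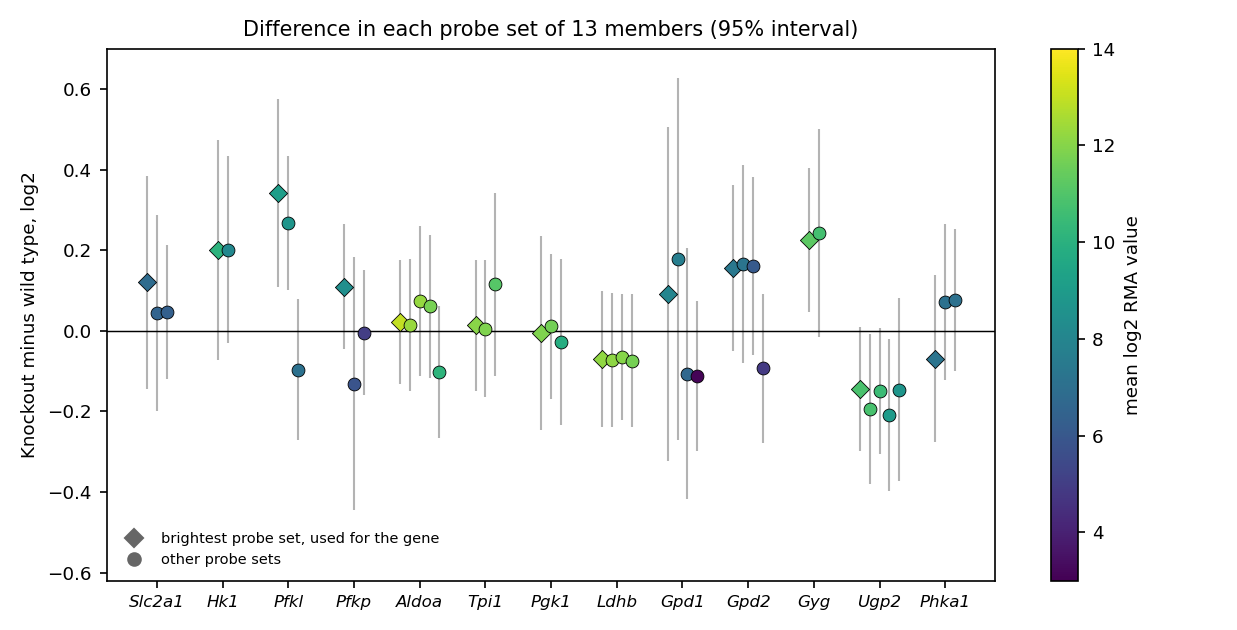
Knockout minus wild type (log2, 95% interval) for every probe set of 13 members, coloured by mean signal; diamonds are the probe sets that stand for the gene. All 5 Ugp2 probe sets lie below 0 and both Gyg probe sets above 0, while Pfkl has 1 of 3 below 0.

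Glycogen genes held members on both sides. Gyg, glycogenin, which primes a new glycogen particle, read 11.12, 11.12 and 11.07 in wild type and 11.21, 11.34 and 11.43 in knockout. All knockout hearts were above all wild-type hearts, with means of 11.10 ± 0.03 (SD, n = 3) and 11.33 ± 0.11. The difference was 1.17-fold (log2 0.23 ± 0.08, SE, adjusted p = 1.00), and the other Gyg probe set gave 0.24 with each knockout heart above the wild-type heart of its number.

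Ugp2 makes UDP-glucose, the glucose donor for glycogen. It read 10.92, 10.91 and 10.89 in wild type and 10.72, 10.80 and 10.78 in knockout. All knockout hearts were below all wild-type hearts, by 1.10-fold on average (log2 -0.14 ± 0.07, SE, adjusted p = 1.00). All 5 Ugp2 probe sets were lower in knockout, from -0.21 to -0.14, and 4 of the 5 had groups apart. Probe sets of 1 gene share the RNA of the same hearts and are not further replicates. In each of the 5, every knockout heart was below the wild-type heart of its number.

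Gbe1, the branching enzyme, read 7.07, 7.07 and 6.91 in wild type and 7.06, 7.43 and 7.45 in knockout. Knockout replicates 2 and 3 were above every wild-type heart and knockout replicate 1 was among them (0.29 ± 0.11, SE, adjusted p = 1.00). Without knockout replicate 1 the difference was 0.42. Gys1, the muscle glycogen synthase that lengthens the chain, read 8.21, 8.37 and 8.28 in wild type and 8.23, 8.32 and 8.42 in knockout, with overlap (0.034, 95% interval -0.15 to 0.22).

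Glycogen is broken down by phosphorylase, whose muscle and brain forms differed by less than their error. Pygm, muscle phosphorylase, read 10.41, 10.56 and 10.58 in wild type and 10.46, 10.54 and 10.60 in knockout, lowest in both first replicates (0.014, 95% interval -0.16 to 0.19). Pygb, the brain form, read 10.65, 10.80 and 10.82 in wild type and 10.71, 10.88 and 10.87 in knockout (0.066), again lowest in the first replicates. The phosphorylase kinase subunits Phka1, Phkb and Phkg1, which switch phosphorylase on, differed by -0.069, -0.073 and -0.17, all with overlap. Phkg1 averaged under 6 and was lowest in knockout replicate 3, at 4.89 against 5.26 to 5.55 in the others. The other Phka1 probe sets gave 0.071 and 0.076.

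Pygl, the liver phosphorylase, varied far more between hearts than between groups. It read 8.50, 6.48 and 7.89 in wild type and 7.88, 6.74 and 9.22 in knockout, a range of 2.74. Both second replicates were the lowest, and knockout replicate 3 and wild-type replicate 1 the highest. Only 5 of 18193 genes had a larger spread within groups. The difference of 0.33 has a 95% interval of -1.14 to 1.79, so these hearts do not settle its sign; without knockout replicate 3 it was -0.31. Hepatocyte markers had summed levels between 9.38 and 9.58 in all 6 arrays. Afp and Fgb averaged under 6, and Alb, Apoa2, Tat and Ahsg were little above it. Markers so near background cannot show whether hepatocyte RNA followed the Pygl range, and the part of hepatocytes in it was not tested.

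Apart from the genotype, some members followed the replicate number. Both first replicates lay outside the other 4 in 10 of 32 members (31.2%), beside 35.4% of all genes. Gpd1 (0.52 higher in the first replicates), Phkg1 (0.26) and Pgk1 (0.23) were above. Hk1 (-0.30), Slc2a1 (-0.23), Pygb (-0.16), Pygm (-0.14), Gys1 (-0.13), Ldha (-0.099) and Tpi1 (-0.074) were below. Among the 75 other pathway genes 35 did so, 12 above and 23 below (46.7%).

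**Figure D5:**
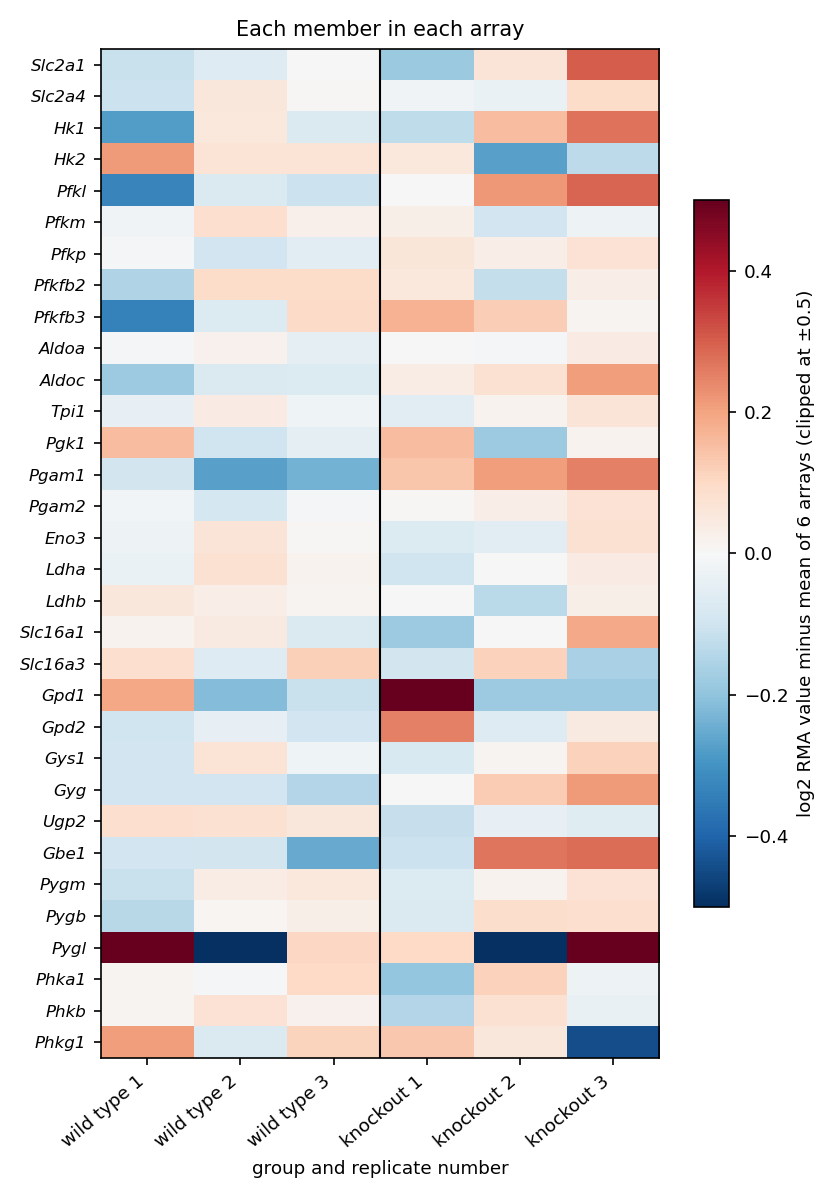
Each member's log2 RMA value in each heart as the distance from its mean over 6 arrays, red above and blue below, clipped at 0.5. Pgam1, Pfkl, Aldoc and Gyg are redder in the knockout columns, Ugp2 and Hk2 bluer, and Pygl and Gpd1 change from heart to heart.

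Other genes of the pathway were taken from a longer list. Of 78 listed transporters, enzymes and regulators, 75 were measured. In knockout 39 were higher (52%, beside 50.2% of all genes) and 36 lower, with a median of 0.019. With limma 0 passed, with or without the pairing, and 1 had an unadjusted p under 0.05 (1.33%, beside 4.1% of all genes). That gene was Ppp1r3d, a subunit that brings protein phosphatase to glycogen. It read 8.01, 7.95 and 7.90 in wild type and 8.06, 8.14 and 8.15 in knockout, with groups apart (0.16 ± 0.07, SE).

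The gene next by p was Irs1, the insulin receptor substrate, at 0.19 ± 0.09 (SE), and its groups overlapped. Ppp1r3c, the glycogen-targeting subunit that activates glycogen synthase, read 10.29, 10.79 and 10.95 in wild type and 9.98, 10.60 and 10.36 in knockout. Each knockout heart was below the wild-type heart of its number (-0.36 ± 0.19, SE, adjusted p = 1.00, and 0.348 with the pairing), and the groups overlapped. Leaving out 1 array gave -0.55 (wild-type replicate 1) to -0.19 (knockout replicate 1). Emb, a partner protein of lactate transporters, differed by -0.26, Car9, a hypoxia-induced carbonic anhydrase, by -0.20, and Ldhc, the testis subunit of lactate dehydrogenase, by -0.16, all with overlap.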

How the data were processed

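Hearts of 3 wild-type and 3 knockout mice at postnatal day 10 were each measured on 1 Affymetrix mouse array with 45101 probe sets. The authors deposited log2 values from RMA, run in the affy package, per the series' design text, after scanning with GCOS 1.4, per the submitters' processing notes. RMA corrects background, equalises the distributions of the arrays and summarises each probe set. Values ran from 2.64 to 14.6, and correlations between arrays from 0.991 to 0.998. The number of arrays limits the precision.

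Control probe sets (64) were left out. A gene was represented by its brightest probe set among the 34945 that name 1 gene, with symbols updated through RefSeq (18031 of 18193 genes matched); 932 named several genes and 9160 none. Members had 72 probe sets, and in 9 of the 20 genes with several they ran in one direction. The test was limma 3.58.1 (R 4.3.3), adjusted (Benjamini-Hochberg) over all genes at 0.05. The fit was tested on simulated data. All 36 members are reported, with the 6 other pathway genes of smallest p. The members and lists were chosen with earlier results of these data known. Nothing in the labels says how the hearts were grouped for RNA work, so p-values measure the spread between these arrays.

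The titles give both groups the replicate numbers 1, 2 and 3. The labels state no pairing, so the main fit had none, and the numbers were treated as pairs only in an alternative fit. Deviations from group means correlated at 0.544, 0.178 and 0.133 within the numbers. Wild-type replicate 2 correlated more with knockout replicate 3 (0.347), and wild-type replicate 3 with knockout replicate 2 (0.304).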

Additional observations from a re-analysis of the deposited data

How the results depend on the processing

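The members passing the threshold stayed at 0 in 15 of 16 alternatives, and so did the other pathway genes. With array weights, 5 members passed (Pgam1 0.47, adjusted p = 0.0143; Gbe1 0.42; Pfkl 0.41; Gyg 0.31; Aldoc 0.28) beside 2.29% of all genes, and 2 pathway genes (Irs1 0.30 and Car9 -0.34). Those weights, estimated from the same 6 arrays, were 4.75 for knockout replicate 3 and 0.222 for knockout replicate 1, so that fit rests largely on 1 knockout heart. Member probe sets passed in 0 cases in the fits run on probe sets (not run for the mean of probe sets, the suffixed probe sets or the dim filter), beside 0.00666% of all probe sets without the pairing; at an unadjusted p of 0.05, 9 of 72 did. With the replicate block, 0 members passed (smallest adjusted p = 0.195) and no call changed. The members' median ranged from -0.012 to 0.049 when 1 array was left out. Leaving out both first replicates, an alternative chosen after seeing the data, gave a median of 0.029 and 17 higher. Of 594 values of single genes under the alternatives, 23 moved by more than the spread between replicates, and of 106 isoform balances 3 did, all for Pfkl or Pfkp against Pfkm. Without suffixed probe sets 8 members, among them Pgam1, Hk1 and Gbe1, have no value. Isoform alternatives were not run for the dim filter, covariates or weights, which do not enter that test.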
